A study of Homo sapiens with 4 samples.

Results

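The 4 inhibitor of differentiation genes (*ID1*, *ID2*, *ID3* and *ID4*) and 6 genes of bone morphogenetic protein (BMP) signaling (the ligands *BMP2*, *BMP4* and *BMP7*, the receptor *BMPR1A*, and the inhibitory SMADs *SMAD6* and *SMAD7*) were followed in PC9 and PC9OR cells. They were found by gene symbol and make up 10 of the 16813 genes listed in at least 1 library. These 10 genes had been selected on the comparison of PC9OR with PC9 cells itself, so their differences between the lines are given as a description, with no p-value. PC9 is an established human lung adenocarcinoma line that carries an activating EGFR mutation, and PC9OR is 1 line derived from it that is resistant to osimertinib, an inhibitor of the EGFR kinase. The labels give both lines the genotype WT and give PC9 the phenotype control. Cells of each line grew in RPMI 1640 with 10% fetal bovine serum, and neither the labels nor the methods say whether the drug was in the medium at harvest. Total RNA was sequenced from 2 biological replicates per line, and the 4 libraries held between 23201307 and 32203998 expected counts (reads assigned to a gene by an estimate that need not be whole). Epithelial markers were high in the 4 libraries. In FPKM (expected counts scaled by transcript length and depth), 5 genes summed to 2091.12 and 2391.14 in PC9 and to 4668.52 and 4527.96 in PC9OR. *KRT8*, *KRT18* and *KRT19* were higher in PC9OR, and *EPCAM* overlapped between the lines. *CDH1* was lower, at 69.49 and 49.53 FPKM in PC9 and at 22.02 and 20.07 FPKM in PC9OR. By contrast, 5 lung alveolar markers summed to at most 0.21 FPKM and 3 of these were at 0 in every library. Of the other marker sums, that of the 5 endothelial genes, mostly *CDH5*, was higher in PC9 (6.51 and 4.1 FPKM) than in PC9OR (0.88 and 0.88 FPKM), while the 5 fibroblast and 5 leukocyte genes summed to at most 0.19 and 0.97 FPKM.

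BMPs are secreted ligands that join type I and type II receptor kinases at the cell surface. The activated type I receptor phosphorylates SMAD1, SMAD5 or SMAD9, which enter the nucleus with SMAD4 and switch on target genes, among them the *ID* genes, *SMAD6* and *SMAD7*. SMAD6 and SMAD7 then hold the pathway back, and the ID proteins bind the E proteins TCF3, TCF4 and TCF12 and keep them off DNA, because they share the helix-loop-helix fold but lack the basic region that contacts it. In the embryonic lung BMP4 acts on the distal epithelium.

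The sequence just upstream of the start was read for the 8 of the 10 genes that matched the RefSeq promoter table (GRCh38.p14), which left out *BMP2* and *BMP7*. The upstream bases of *ID1*, *ID3* and *SMAD6* are shown because *ID1* was the most abundant of the 10 genes and the only tested one that was lower in PC9OR cells, and because *ID3* and *SMAD6* had the largest increases. Each runs 5′ to 3′ on the strand of the gene and ends at the base before the start, at chr20:31605039-31605288 (plus strand) for *ID1*, chr1:23559502-23559751 (minus strand) for *ID3* and chr15:66701986-66702235 (plus strand) for *SMAD6*. Capitals mark the letters GGCGCC, GTCTAGAC or CAGAC on either strand, which are known as SMAD-binding sequences.
ID1: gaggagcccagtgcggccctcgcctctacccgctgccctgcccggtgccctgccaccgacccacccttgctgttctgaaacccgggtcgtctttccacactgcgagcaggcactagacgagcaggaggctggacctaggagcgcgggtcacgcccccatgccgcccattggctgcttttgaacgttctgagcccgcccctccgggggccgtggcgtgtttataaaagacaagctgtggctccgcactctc
ID3: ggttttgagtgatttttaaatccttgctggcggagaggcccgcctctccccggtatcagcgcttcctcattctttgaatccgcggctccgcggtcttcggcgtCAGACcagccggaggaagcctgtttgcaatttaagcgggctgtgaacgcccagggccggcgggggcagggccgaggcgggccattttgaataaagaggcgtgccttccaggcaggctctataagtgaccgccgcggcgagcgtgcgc
SMAD6: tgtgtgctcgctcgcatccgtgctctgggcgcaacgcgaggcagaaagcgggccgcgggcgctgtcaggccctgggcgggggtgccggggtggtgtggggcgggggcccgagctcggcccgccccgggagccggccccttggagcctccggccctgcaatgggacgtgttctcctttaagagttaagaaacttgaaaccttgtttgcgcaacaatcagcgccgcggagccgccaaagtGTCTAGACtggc
The *ID1* stretch held none of these letters, the *ID3* stretch held CAGAC and the *SMAD6* stretch held GTCTAGAC, which begins 12 bases before the start. Counted over windows of 300 bases (250 before and 50 after the start, both strands), GTCTAGAC was in 0.202% of all 35116 windows and, among the 12 windows of the 8 genes, in that of *SMAD6* alone. The commoner CAGAC was in 45.3% of all windows and in 7 of the 12 windows, belonging to *ID3*, *ID4*, *BMP4* and *SMAD7*. The letters GGCGCC were in 19.2% of all windows and in 1 of the 12, a *BMP4* window. The E-box CANNTG, the sequence that E proteins bind and that the ID proteins keep them from, was in 68.7% of all windows and in 7 of the 12, while the windows of *ID1* and *ID3* did not contain it. None of the 3 SMAD sequences contains another, and a match of letters describes the window and does not show binding.

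Within the *ID* family the balance between *ID1* and *ID3* differed between the lines. *ID1*, at chr20:30193086-30194318 (GRCh37, plus strand), was at 37.94 and 47.75 FPKM in PC9 replicates 1 and 2 and at 34.37 and 24.93 FPKM in PC9OR replicates 1 and 2. Both PC9OR libraries were below both PC9 libraries, by a small gap between PC9 replicate 1 and PC9OR replicate 1. The mean was 42.8 ± 6.94 FPKM in PC9 and 29.6 ± 6.68 FPKM in PC9OR (SD, n = 2), and the log2 fold change of PC9OR over PC9 fitted to the counts was -0.49 (SE 0.2). With offsets that remove the trend of the counts with transcript length in each library, its log2 fold change was -0.84. The 30 tested genes around *ID1* had a median log2 fold change of -0.53, near that of *ID1* itself. In bulk RNA a smaller share of cells with a transcript and less transcript per cell cannot be told apart.

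*ID3*, at chr1:23884417-23885992 (minus strand), was at 5.12 and 7.53 FPKM in the PC9 libraries and at 18.94 and 17.1 FPKM in the PC9OR libraries. The lines were well apart, with the lowest PC9OR library above the highest PC9 library. The mean was 6.33 ± 1.7 FPKM in PC9 and 18.0 ± 1.3 FPKM in PC9OR (SD, n = 2), a 2.88-fold increase with a log2 fold change of 1.53 (SE 0.228). Its 30 neighboring genes had a median log2 fold change of 0.36. The increase of *ID3* was fitted at between 1.26 and 1.83 on the log2 scale when any 1 library was left out, and at 1.25 with the offsets for transcript length.

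The other ID genes were scarce. *ID4*, at chr6:19837601-19842428 (plus strand), was at 0.07 and 0.13 FPKM in PC9 and at 0.22 and 0.2 FPKM in PC9OR, from 9, 21, 38 and 36 counts. Both PC9OR libraries were higher than both PC9 libraries, and the log2 fold change was 1.04 (SE 0.487), ranging from 0.66 to 1.56 with 1 library left out. *ID2*, at chr2:8818975-8824591 (plus strand), had 0 counts in both PC9 libraries, 4 counts in PC9OR replicate 1 and 0 counts in PC9OR replicate 2. A library with 0 counts could still hold up to 3 counts by chance, which is between 0.0938 and 0.128 CPM (counts scaled to a common library size) in the 3 libraries at 0, a limit that covers counting error only. *ID2* was thus not detectable at this depth in 3 of the 4 libraries.

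Added together, the *ID* transcripts were at 43.1 and 55.4 FPKM in the PC9 libraries and at 53.6 and 42.2 FPKM in the PC9OR libraries. These totals overlapped between the lines. *ID3* made up 11.9% and 13.6% of the total in PC9 and 35.3% and 40.5% in PC9OR. *ID1* made up 88.0% and 86.2% in PC9 and 64.1% and 59.0% in PC9OR. The ratio of *ID1* to *ID3* went from 7.41 and 6.34 in PC9 to 1.81 and 1.46 in PC9OR, so *ID1* stayed the more abundant gene in every library.

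**Figure D1:**
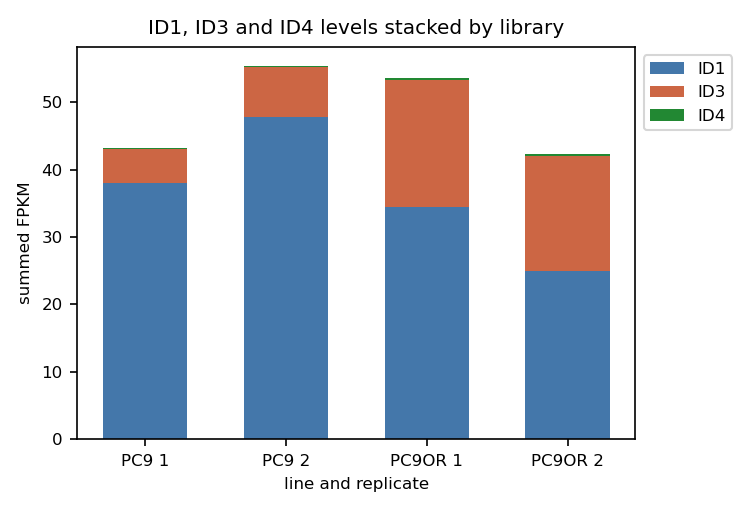
FPKM of *ID1*, *ID3* and *ID4* stacked for each library on a linear axis (*ID2*, at 0.07 FPKM in PC9OR replicate 1 and at 0 elsewhere, is not drawn). The height of the bars overlaps between the lines, while the *ID3* part is larger in both PC9OR libraries.

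Of the ligands, *BMP4* was the only abundant one. *BMP4*, at chr14:54416454-54425479 (minus strand), was at 13.73 and 11.57 FPKM in PC9 and at 14.33 and 13.86 FPKM in PC9OR. The PC9OR libraries lay above those of PC9 by less than the gap between the PC9 replicates, and the log2 fold change was 0.19 (SE 0.124) or 0.07 with the length offsets. *BMP2*, at chr20:6748333-6760893 (plus strand), was at 0.26 and 0.3 FPKM in PC9 and at 0.49 and 0.49 FPKM in PC9OR, from 26, 38, 69 and 70 counts. Its lines did not overlap, and the log2 fold change was 0.84 (SE 0.339). *BMP7*, at chr20:55743809-55841697 (minus strand), had 18.4 and 5.03 counts in PC9 and 1.0 and 4.24 counts in PC9OR, that is 0.14, 0.03, 0.01 and 0.02 FPKM. PC9 replicate 1 stood above the other 3 libraries, which were all close to the limit of 3 counts.

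*BMPR1A*, a type I receptor for BMP2 and BMP4 at chr10:88516353-88692582 (plus strand), was at 10.79 and 12.6 FPKM in PC9 and at 13.44 and 14.16 FPKM in PC9OR. Both PC9OR libraries were the higher ones, although PC9 replicate 2 and PC9OR replicate 1 were closer to each other than the PC9 replicates were. The log2 fold change was 0.27 (SE 0.135), or 0.41 with the length offsets, and the 30 genes around it had a median of 0.30.

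The inhibitory SMADs differed in both level and size of change. *SMAD6*, which mainly blocks BMP receptors and lies at chr15:66994574-67075187 (plus strand), was at 0.09 and 0.04 FPKM in PC9 and at 0.63 and 0.33 FPKM in PC9OR. These levels rest on 8.34 and 5.01 counts in PC9 and on 80.5 and 43.1 counts in PC9OR. The lines were separate, but PC9OR replicate 1 was well above PC9OR replicate 2. The counts of *SMAD6*, like those of *BMPR1A* and *BMP7*, were not whole, as the estimate gives where it divides reads between genes. The difference was 7.54-fold, with a log2 fold change of 2.91 (SE 0.595) that ranged from 2.39 to 3.45 with 1 library left out. *SMAD7*, which blocks both BMP and TGF-beta receptors and lies at chr18:46446223-46477335 (minus strand), was at 7.23 and 6.53 FPKM in PC9 and at 9.77 and 7.83 FPKM in PC9OR. Its PC9OR libraries were the higher ones, and the log2 fold change was 0.37 (SE 0.155), the same value with the length offsets. *SMAD7* was thus the more abundant inhibitory SMAD per transcript length in every library, and *SMAD6* the one with the larger difference.

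**Figure D2:**
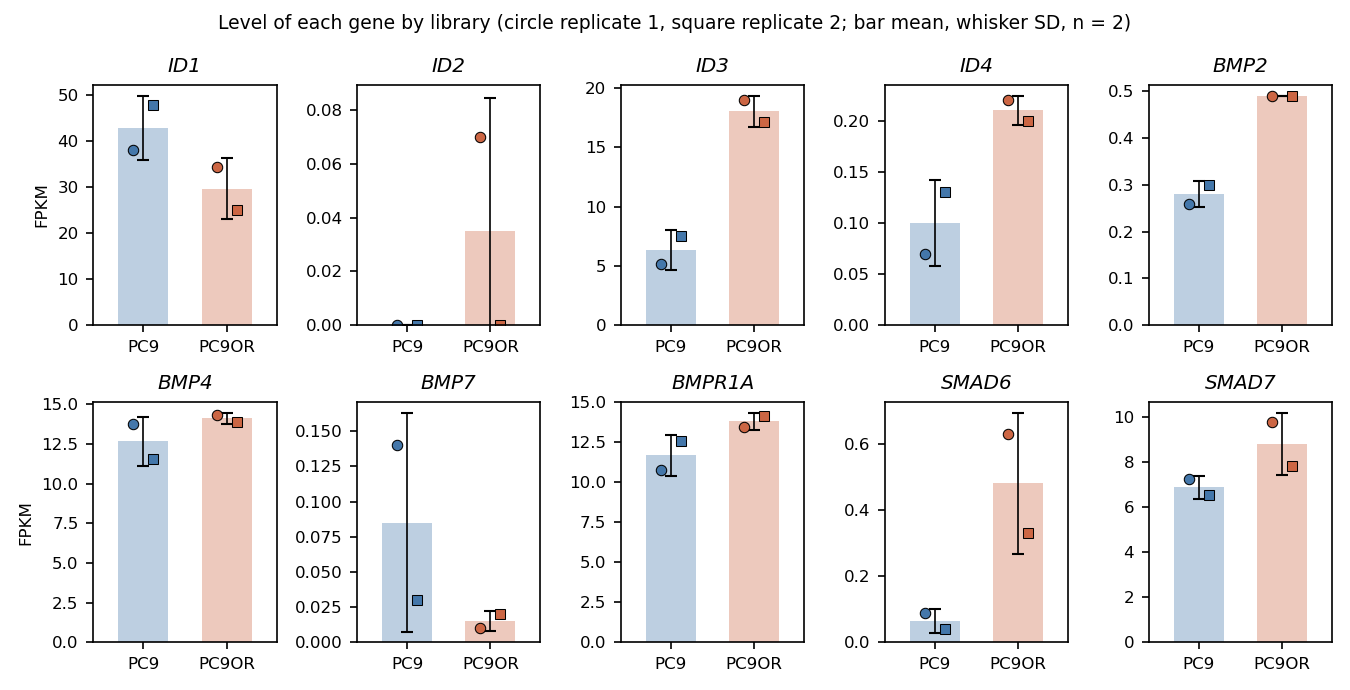
FPKM of the 10 genes on linear axes that start at 0, with a circle for replicate 1, a square for replicate 2, a bar for the mean and a whisker for the SD (n = 2); the axes differ between genes. *ID3*, *ID4*, *BMP2* and *SMAD6* show the clearest separation, and *ID1* is the abundant gene that was lower in PC9OR cells.

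Of the 10 genes, 8 passed the filter on low counts, while *ID2* and *BMP7* did not. *SMAD6* had at most 8.34 counts in a PC9 library and passed through its PC9OR libraries. At an adjusted p under 0.05, the threshold used for all 13148 genes tested, *ID3* and *SMAD6* were called higher, beside 15.6% of all genes called higher. None of the 8 was called lower, beside 20.8% of all genes, and none had an unadjusted p under 0.05 in that direction (0 calls with DESeq2, 1 at an unadjusted p under 0.05). The lowest PC9OR library exceeded the highest PC9 library for 7 of the 8 genes (39.6% of all genes), and for *ID1* the highest PC9OR library was under the lowest PC9 library (38.2% of all genes). The median log2 fold change of the 8 genes was 0.60, and that of all genes 0.01. Because the 10 genes had been selected on this contrast, these calls and counts are no test of them, and nothing is read from them.

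The size of these differences varied with the libraries that entered the fit. The log2 fold change of *SMAD6* was 2.39 without PC9OR replicate 1 and 3.45 without PC9 replicate 1. That of *ID1* ranged from -0.70 without PC9OR replicate 1 to -0.29 without PC9OR replicate 2, and that of *BMPR1A* from 0.14 without PC9 replicate 1 to 0.39 without PC9 replicate 2. The replicates of PC9 were less alike than those of PC9OR, with a coefficient of biological variation of 0.241 against 0.104. The PC9 libraries also differed by a trend with transcript length (rank correlation -0.381 between replicates 2 and 1, against -0.00649 for PC9OR). The comparison of the lines held such a trend too: over all genes tested, the log2 fold change of PC9OR over PC9 had a rank correlation of -0.34 with transcript length. The part of these differences between libraries in the values of the 10 genes was not tested beyond the length offsets and the left-out libraries.

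**Figure D3:**
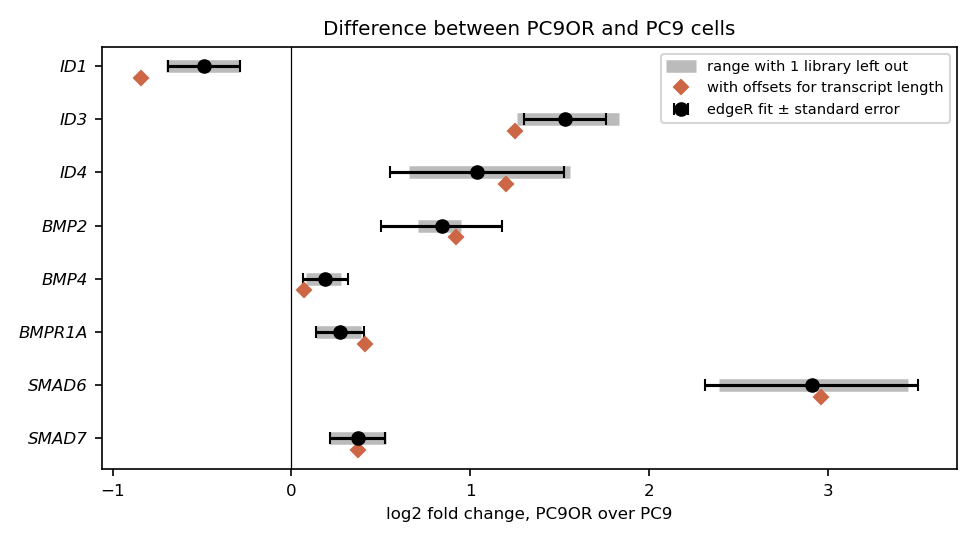
Log2 fold change of PC9OR over PC9 for the 8 genes that passed the filter: black points are the edgeR fit with its standard error, grey bars the range with any 1 library left out, and diamonds the fit with offsets for transcript length. *SMAD6* has the largest value (2.91) with the widest error, *ID3* follows at 1.53, and *ID1* is the gene left of 0.

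The rest of the pathway was read from lists drawn up by role, with earlier results of these data known. Their counts beside the share of all genes are therefore a description. Of 71 further BMP genes, 15 were in no library and 11 were under the filter. Of the 45 tested, 6 were higher in PC9OR cells (15.6% of all genes were), 18 were lower (20.8% of all genes were) and 21 were not called, and their median log2 fold change was -0.36 (-0.14 with the length offsets). Without PC9OR replicate 1 no gene of these was called higher (4 at an unadjusted p under 0.05) and 8 were called lower, and without PC9OR replicate 2 these numbers were 0 (5) and 9. Such a fit leaves PC9OR with 1 library, which is assumed to vary as the PC9 pair does, so the spread comes from the more variable line alone. With the Wald test of DESeq2, 5 were higher and 18 lower, and with the length offsets 8 were higher and 13 lower.

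Of the 8 other receptors and co-receptors tested, edgeR called 5 lower (20.8% of all genes were) and 0 higher (15.6% of all genes were). In edgeR 1 of the 8 was higher at an unadjusted p under 0.05, and DESeq2 called 5 lower and 0 higher. The median log2 fold change of the 8 was -1.38 or, with the length offsets, -0.77. *BMPR2*, the type II receptor that pairs with BMPR1A, fell from 66.7 and 53.6 CPM in PC9 to 22.4 and 23.4 CPM in PC9OR (log2 fold change -1.39, SE 0.149, adjusted p = 0.00646), by -0.51 on the log2 scale with the length offsets. The type I receptor *ACVR1* fell from 13.4 and 11.4 to 4.56 and 4.19 CPM (log2 fold change -1.50, SE 0.207, adjusted p = 0.00984). *BMPR1B*, another type I receptor, which was chosen after its values were seen, fell from 5.42 and 5.58 to 1.59 and 2.66 CPM (log2 fold change -1.37, adjusted p = 0.0347, or 0.0633 with the length offsets), and at -1.04 and -1.78 it was not called without PC9OR replicate 1 or 2. By FPKM, *BMPR1A* held 72.3% and 78.0% of the sum of *BMPR1A*, *ACVR1* and *BMPR1B* in PC9 and 90.9% and 91.2% in PC9OR. *BMPR2* held 51.6% and 43.3% of the sum of *BMPR2*, *ACVR2A* and *ACVR2B* in PC9 and 27.0% and 28.1% in PC9OR. The co-receptor *RGMA*, also chosen after its values were seen, was at 0.213 and 0.0347 CPM in PC9 and at 0.968 and 0.563 CPM in PC9OR (log2 fold change 2.65, SE 0.854, adjusted p = 0.0629), and it was past the threshold with the length offsets (2.73, adjusted p = 0.0499) and with the replicate block (2.77, adjusted p = 0.0362), but not with DESeq2 (2.65, adjusted p = 0.118). *RGMA* had 5 and 1 counts in PC9 and 31 and 18 in PC9OR. It passed the filter on low counts through its PC9OR libraries, so its adjusted p-values are given as a description only. Its relative *RGMB* fell (log2 fold change -1.47, SE 0.143, adjusted p = 0.00549). *ENG*, the co-receptor endoglin that is best known from endothelial cells, had 710 counts over the PC9 libraries and 2 over those of PC9OR, a ratio of 435 (95% exact interval 120 to 3600, counting error only, adjusted p = 0.00529). It passed the filter on low counts through its PC9 libraries, so this adjusted p too is a description only. The endothelial marker *CDH5*, which made up most of that marker sum, moved the same way. Of the other endothelial markers, *PECAM1* and *TEK* overlapped between the lines, *VWF* was seen only in PC9OR replicate 2 (0.01 FPKM) and *KDR* in no library. The part of any of these in the *ENG* difference was not tested.

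None of the 4 SMAD transducers was called by edgeR or by DESeq2, and none had an unadjusted p under 0.05 in either. *SMAD5*, the most abundant of those that BMP receptors phosphorylate, was at 130 and 136 CPM in PC9 and at 111 and 116 CPM in PC9OR (log2 fold change -0.23, adjusted p = 0.129), and its sign turned to 0.25 with the length offsets. *SMAD1* had a log2 fold change of -0.26 (adjusted p = 0.365) and *SMAD9*, at less than 1 CPM in every library, one of 0.09 (adjusted p = 0.917). The shared partner *SMAD4* was at 43.7 and 88.6 CPM in PC9 and at 95.2 and 96.3 CPM in PC9OR, so that PC9 replicate 1 was the low library (log2 fold change 0.53, SE 0.333, adjusted p = 0.25). *SMAD4* was past the threshold with the replicate block (0.62) and with the block and the length offsets together (1.25). Its log2 fold change was 0.10 without PC9 replicate 1 and 1.12 without PC9 replicate 2, and that of *SMAD5* was -0.27 and -0.22. A fit without a PC9 library leaves that line with 1 library and takes the spread from the less variable PC9OR pair, so no call is read from it.

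Genes that hold BMP signaling back went both ways. Among 9 tested extracellular antagonists and modulators 3 were higher (15.6% of all genes were) and 2 lower (20.8% of all genes were). *NOG*, which encodes the secreted BMP trap noggin, rose from 26.8 and 35.2 CPM to 57.9 and 44.6 CPM (log2 fold change 0.72, SE 0.202, adjusted p = 0.0447). The pseudoreceptor *BAMBI* rose from 2.52 and 3.4 to 5.74 and 5.66 CPM (log2 fold change 0.94, adjusted p = 0.0499), but was not called with the length offsets (adjusted p = 0.0608), the replicate block (0.96), DESeq2 (0.94), no filter on low counts (0.95) or without PC9 replicate 1 (0.74). *TWSG1* rose by a log2 fold change of 0.59 (adjusted p = 0.0231), whereas *FSTL1* (-1.17, adjusted p = 0.00547) and *CRIM1* (-0.50, adjusted p = 0.0212) fell, the last at -0.14 and not called with the length offsets. With PC9OR replicate 1 or 2 left out, *NOG* (0.53 and 0.91), *BAMBI* (0.94 and 0.96), *TWSG1* (0.62 and 0.58) and *CRIM1* (-0.49 and -0.49) were not called. *NOG* was also not called without PC9 replicate 1 (0.54) or with limma on log2(FPKM + 1). Of 14 intracellular regulators 2 were higher (15.6% of all genes were) and 8 were lower (20.8% of all genes were). The higher ones were the ubiquitin ligase *SMURF2* (0.93, adjusted p = 0.021) and the SMAD phosphatase *CTDSPL* (0.68, adjusted p = 0.0138). The lower ones included the SMAD corepressor *SKI* (-1.91, adjusted p = 0.00719), *TOB2* (-0.98, adjusted p = 0.0214), *FKBP1A* (-0.89, adjusted p = 0.0206), which keeps type I receptors inactive, and *SMURF1* (-0.78, adjusted p = 0.0199). The list's median log2 fold change was -0.58, or -0.10 with the length offsets. With PC9OR replicate 1 or 2 left out *SMURF2* (0.87 and 1.01), *CTDSPL* (0.63 and 0.74), *FKBP1A* (-0.97 and -0.80) and *SMURF1* (-0.87 and -0.69) were not called, and *TOB2* was not called without PC9OR replicate 1 (-0.76).

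Of 9 other tested genes known as BMP targets, 1 was higher in PC9OR cells (15.6% of all genes were) and 3 were lower (20.8% of all genes were). *HEY1*, a transcriptional repressor that NOTCH also induces, rose from 3.33 and 5.62 to 10.0 and 9.69 CPM (log2 fold change 1.14, SE 0.308, adjusted p = 0.0421). *GATA3* fell from 16.3 and 9.71 to 2.19 and 2.22 CPM (log2 fold change -2.56, SE 0.326, adjusted p = 0.00851), *RUNX2* by -2.15 (adjusted p = 0.017) and *SNAI2* by -0.77 (adjusted p = 0.0287) on the log2 scale. With PC9OR replicate 1 or 2 left out *HEY1* (1.12 and 1.17) and *SNAI2* (-0.82 and -0.71) were not called at differences of about the same size. Among other ligands only *BMP6* could be tested, at 1.53 and 2.07 FPKM in PC9 and at 1.04 and 1.11 FPKM in PC9OR (log2 fold change -0.71, adjusted p = 0.0758).

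**Figure D4:**
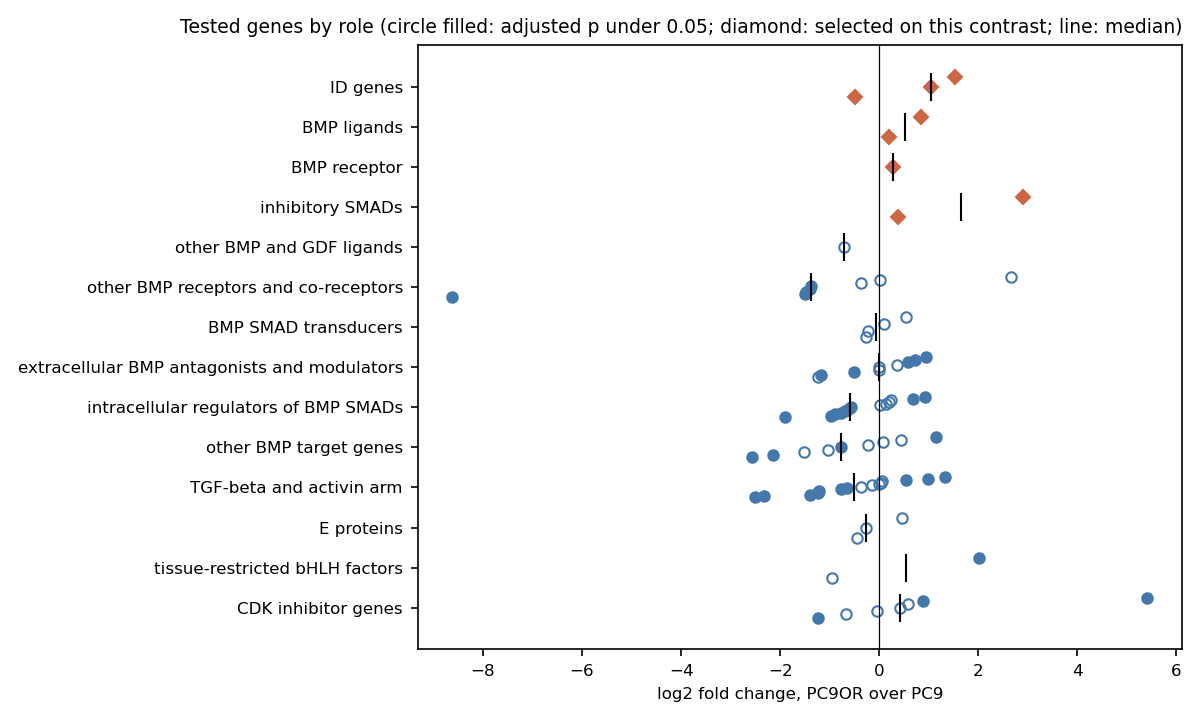
Log2 fold change of PC9OR over PC9 for every tested gene of each list, with diamonds for the 8 genes selected on this contrast, filled circles for other genes at an adjusted p under 0.05, open circles for those over it, and a line at the median. The receptors and co-receptors have a median of -1.38 and sit mostly left of 0, and the point farthest left is *ENG*, whose fitted value rests on 2 counts in PC9OR.

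Of the 3 E proteins, the partners that ID proteins bind, edgeR called 0 (1 at an unadjusted p under 0.05), and DESeq2 called *TCF12* as lower. *TCF3* was at 59.5 and 47.0 CPM in PC9 and at 45.5 and 42.8 CPM in PC9OR (log2 fold change -0.27, adjusted p = 0.209), and *TCF12* had a log2 fold change of -0.45 (adjusted p = 0.0514). *TCF4* had one of 0.46 (adjusted p = 0.205), which passed the threshold with the length offsets at 1.07 (adjusted p = 0.0161). Per transcript length, *ID1* exceeded each of the 3 E proteins in every library, whereas *ID3* was below *TCF3* and *TCF12* in both PC9 libraries and above them in both PC9OR libraries. In PC9 replicate 2 *ID3* was only just below *TCF3* (7.53 against 7.7 FPKM), and *ID3* was above *TCF4* in every library.

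The TGF-beta and activin arm, whose receptors SMAD7 also blocks, had 3 genes higher (15.6% of all genes were) and 7 lower (20.8% of all genes were) among 16 tested. Its median log2 fold change was -0.52, or -0.07 with the length offsets. With these offsets *TGFBR1* (-0.23, adjusted p = 0.251) and *INHBA* (-0.38, adjusted p = 0.115) were no longer called lower, and *TGFB2* (0.38, adjusted p = 0.0448) was called higher. *TGFBR1*, *INHBA* and *TGFB2* were chosen after their values were seen. The type II receptor *TGFBR2* fell from 58.6 and 48.1 to 22.9 and 22.7 CPM (log2 fold change -1.23, SE 0.142, adjusted p = 0.00723). *SMAD3*, which transmits TGF-beta signals, fell from 246 and 165 to 38.9 and 33.6 CPM (log2 fold change -2.50, SE 0.231, adjusted p = 0.00533), and the ligand *TGFB1* and the target *TGFBI* fell by -2.32 and -1.23 on the log2 scale. The ligand genes *INHBB* (0.99, adjusted p = 0.00683) and *TGFB3* (1.33, adjusted p = 0.0321) and the co-receptor *TGFBR3* (0.54, adjusted p = 0.0274) rose. *TGFB3* (1.30 and 1.37) and *TGFBR3* (0.61 and 0.48) were not called with PC9OR replicate 1 or 2 left out.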

How the data were processed

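The 10 genes and the gene lists were chosen with earlier results of these data known. Per the submitters' processing notes, which name no roles, Bowtie2 2.2.5, RSEM 1.2.12 and GRCh37 were used, and libraries were made with a stranded TruSeq kit and sequenced at 100 bases. The deposited values were, for every gene and library, an expected count, an FPKM (that count divided by length and depth) and the length of the transcripts. A gene absent from a library was set to 0. Symbols were matched for 99.7% of the 16813 genes, and positions came from GENCODE lifted to GRCh37.

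In this work edgeR 4.0.16 (R 4.3.3) was run on the rounded expected counts (TMM scaling, filterByExpr, glmQLFit and glmQLFTest) over all 4 libraries, with Benjamini-Hochberg adjustment over 13148 genes and a threshold of 0.05. The study's methods name DEGseq, which was not used here. Standard errors are the absolute log2 fold change over the root of the quasi-likelihood F. CPM used TMM library sizes. The p-values measure the spread between the 2 replicates per line, which the labels call biological. The fit was also run on simulated data with equal variation in both lines and no trend with transcript length. These libraries differ from that in both respects, so the simulation does not cover them. Besides the 10 genes, 10 genes were always named, and from each list the called genes, at most 4 per direction, largest first. The result for 1 single gene is not reported here. Counts of 3 or fewer in a line were given as ratios with exact 95% intervals. Length offsets were smooth curves per library (mgcv 1.9.3). The other alternatives were DESeq2 1.42.0, limma 3.58.1 on log2(FPKM + 1) and log2(FPKM + 0.1), other scalings and filters, a replicate block and each library left out. The main fit did not pair libraries by replicate number. The deviations of same-numbered libraries correlated at 0.0522 across genes, which with 2 libraries per line cannot settle whether they were paired.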

Additional observations from a re-analysis of the deposited data

How the results depend on the processing

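The comparison rests on 2 libraries per line, and the depth leaves *ID2*, *BMP7*, *ID4* and *SMAD6* at few counts. No called gene named here changed direction. Of those not called, *SMAD5* turned from -0.23 to 0.25, *ACVR2B* from -0.36 to 0.46 and *TGFB2* from -0.01 to 0.38 with the length offsets. *SMAD9* turned from 0.09 to -0.35 without PC9 replicate 1 and to -0.24 without PC9OR replicate 1. *ACVR2A* (0.02, down to -0.16) and *EPCAM* (-0.01, up to 0.04) also changed sign with 1 library left out. With offsets for transcript length and the replicate block together, 3197 genes were called higher and 2616 lower among all genes and 10 higher among the other BMP genes. With the length offsets, with or without the block, 1 of the 10 genes (*ID1*) was called lower. Because the 10 genes had been selected on this contrast, their calls under any setting given here are a description and no test of them. A minimum of 10 counts in every library removed *ID4* and *SMAD6* from the tested genes and left 1 of the 10 called higher. The replicate block alone called 2593 genes higher and 2946 lower, 7 and 18 of the other BMP genes, and 2 and 0 of the 10 genes. Leaving out 1 library gave between 525 and 3932 genes higher and between 1177 and 3929 lower among all genes, between 0 and 9 higher and between 8 and 22 lower among the other BMP genes, and between 1 and 3 higher and between 0 and 1 lower among the 10 genes. The lowest of these counts over all genes came without PC9OR replicate 1, which gave 525 and 1177, or replicate 2, which gave 527 and 1191, and the highest came without PC9 replicate 2. At more than 2-fold and an adjusted p under 0.001, edgeR called 0 genes in either direction among all genes, the other BMP genes and the 10 genes (967 and 1718, 2 and 10, and 2 and 0 at more than 2-fold and an unadjusted p under 0.05). DESeq2 called 502 and 1227, 0 and 8, and 1 and 0 at that stricter threshold. Of the values of the other named genes under these settings, 473 kept their side of the threshold, 42 lost it and 13 gained it. Of those of the 10 genes, 96 moved by less than the spread between replicates and 14 by more. The log2 fold changes of *SMAD6* and *BMP2* were 0.47 and 0.22 with limma on log2(FPKM + 1), and those of *BMP4* and *ID1* 0.07 and -0.84 with the length offsets. Apart from the length offsets and the filter, the cause of these changes was not tested.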

Other observations

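The CDK inhibitor genes moved both ways, and whether ID or E proteins act on them in these cells was not tested. Of 7 tested, 2 were higher in PC9OR cells (15.6% of all genes were) and 1 was lower (20.8% of all genes were), with a median log2 fold change of 0.41 (0.13 with the length offsets). *CDKN1C*, the gene of the cell cycle inhibitor p57, had 1 count over the PC9 libraries and 64 over those of PC9OR, a ratio of 52.3 (95% exact interval 9.05 to 2100, counting error only, adjusted p = 0.0204), and was not called without PC9OR replicate 1. *CDKN1C* passed the filter on low counts through its PC9OR libraries, where it was high, so its adjusted p is given as a description only. Leaving out a PC9OR library leaves that line with 1 library and takes the spread from the PC9 pair. *CDKN1B* rose from 39.2 and 47.5 CPM to 78.5 and 82.1 CPM (log2 fold change 0.89, SE 0.138, adjusted p = 0.0119), but at 0.93 and 0.86 was not called without PC9OR replicate 1 or 2. *CDKN1A*, the p21 gene that E proteins can switch on, fell from 47.7 and 43.5 to 23.4 and 15.4 CPM (log2 fold change -1.23, SE 0.225, adjusted p = 0.0166).

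Tissue-restricted bHLH factors, which pair with E proteins on DNA, were mostly silent: of 16 listed, 11 were in no library and 3 were under the filter on low counts. *TWIST1* rose from 0.341 and 0.312 CPM to 1.12 and 1.53 CPM (log2 fold change 2.01, SE 0.456, adjusted p = 0.0274 with edgeR). With 8 and 9 counts in PC9, it passed the filter through its PC9OR libraries, so this adjusted p is a description only. It was not called by DESeq2, with the length offsets and the replicate block together (1.83), or without PC9OR replicate 1 (2.22) or 2 (1.78).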
